A study of Homo sapiens with 18 samples.

Results

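The genes described here are 10 ligands of inflammatory signalling: the chemokines CXCL8, CXCL1, CXCL2, CXCL10, CXCL11, CCL2 and CCL5 and the cytokines IL6, IL1A and IL1B. They were looked up by symbol in the gene tables of both cell lines. MCF10A lists 8 of them among 15358 genes, without CXCL10 and CCL2, and hTERT RPE-1 lists 7 among 15257 genes, without CXCL10, CXCL11 and CCL5. A total of 9 were listed in at least 1 line out of 16715 genes, and 6 were listed in both. CXCL10 is therefore shown by its sequence only, and its mRNA was not analysed here. No listed value is 0, so a gene without reads in some library of a line may have been left out. That a gene is not listed therefore does not show that it was not expressed or not raised by a mimic.

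RNAseq of polyadenylated RNA was done on 18 libraries from 2 human epithelial cell lines. MCF10A is an immortalised, non-tumorigenic breast epithelial line, and hTERT RPE-1 is a retinal pigment epithelial line immortalised with telomerase. Cells of each line received, at 30 nM for 72 h, a non-targeting siRNA (siNT), the mimic of hsa-miR-28-5p or the mimic of hsa-miR-708-5p, with 3 biological replicates per group, and the replicates carry the numbers 7, 8 and 9 for MCF10A but 1, 2 and 3 for hTERT RPE-1. The study asks what these mimics, which belong to the MIR-28 family and were found in a screen for regulators of ribosome production, change in the transcriptome. All groups share the transfected small duplex RNA, and no untransfected cells were among these libraries. Each line is 1 culture model, so the results describe these lines.

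Chemokines are small secreted proteins that attract leukocytes through receptors on their surface. CXCL8, CXCL1 and CXCL2 bind CXCR1 or CXCR2 and draw neutrophils, CXCL10 and CXCL11 bind CXCR3 and draw activated T cells, CCL2 binds CCR2 and draws monocytes, and CCL5 draws T cells and monocytes. IL-1α and IL-1β activate cells through the IL-1 receptor, and IL-6 drives the acute phase response through STAT3. NF-κB, a dimeric factor released when its inhibitor is degraded, switches on CXCL8, CXCL1, CXCL2, CCL2, IL6, IL1A and IL1B. Interferon, acting through factors that include STAT2 and IRF9, switches on CXCL10 and CXCL11. CCL5 was grouped with the interferon-driven ligands and CCL2 with the NF-κB-driven ligands, although both genes respond to both routes. This gives 3 interferon-driven and 7 NF-κB-driven ligands.

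The mimics are shown because a microRNA recognises its targets mainly by its seed, bases 2 to 8, which is in capitals below. Both carry the same seed, AGGAGCU, and 16 positions are identical over the length they share.
hsa-miR-28-5p: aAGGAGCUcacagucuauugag
hsa-miR-708-5p: aAGGAGCUuacaaucuagcuggg

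The 3′ untranslated regions of the 10 ligands, taken from the MANE Select transcripts of GENCODE 44 (GRCh38), were searched for GCTCCT, the complement of seed bases 2 to 7. It was in 0 of the 10, while 33.01% of 18780 human 3′ untranslated regions hold it. The longer complement AGCTCCT and GCTCCT followed by A were in none of them either. This says only that these letters are not in these transcript ends. The same regions were searched for ATTTA, the core of the AU-rich element that marks cytokine mRNAs for rapid decay. CXCL2 held 10 copies, CXCL8 held 9, CXCL1, IL1B and IL6 held 6 each and IL1A held 5, while CCL2, CXCL10 and CXCL11 held 1 each and CCL5 held 0. Of all 3′ untranslated regions, 68.3% hold at least 1 copy, with a median of 1.55 per 1000 bases, compared with 14.1 per 1000 in IL6, 14.0 in CXCL2 and 9.84 in IL1B. The longer word TTATTTATT, present in 8.60% of regions, occurred 5 times in CXCL2, 3 times in CXCL1, 2 times in IL1B and 1 time in CXCL8. Per 1000 bases the NF-κB-driven ligands held between 2.66 (CCL2) and 14.1 copies of ATTTA, and the interferon-driven ligands at most 1.23 (CXCL10).

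Promoters are shown because the ligands are grouped here by the factors that switch them on. RefSeq windows of 300 bases around the gene start were matched by symbol for 8 of the 10 ligands (GRCh38.p14). CCL2 and CCL5 are named only. The κB motif was searched on both strands as GGRRNNYYCC, where R is A or G, Y is C or T and N is any base. Of 35116 promoter windows, 14.0% hold it. Sites that depart from this pattern are missed. The interferon-stimulated response element, TTTC followed by any 2 bases and a further TTTC, was also searched on both strands, and 3.57% of windows hold it. The lines below give 1 match per gene on the strand of the gene, with the matched letters in capitals.
CXCL8, chr4:73740542-73740571, plus strand, κB motif: aaaagccaccGGAGCACTCCataaggcaca
CXCL1, chr4:73869304-73869333, plus strand, κB motif: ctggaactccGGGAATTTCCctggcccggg
CXCL2, chr4:74099254-74099283, minus strand, κB motif: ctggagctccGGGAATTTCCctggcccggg
IL6, chr7:22727117-22727146, plus strand, κB motif: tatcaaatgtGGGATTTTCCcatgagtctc
CXCL11, chr4:76036127-76036156, minus strand, κB motif: gactcaaagaGGGAAATTCCtgtgccataa
CXCL10, chr4:76023655-76023684, minus strand, κB motif: gaggagcagaGGGAAATTCCgtaacttgga
CXCL10, chr4:76023699-76023728, minus strand, interferon-stimulated response element: tcatgttttgGAAAGTGAAAcctaattcac

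CXCL10 held 2 κB matches and was the only one of the 8 with a match to the interferon-stimulated response element. CXCL1 and CXCL2 each held 2 overlapping κB matches in a nearly identical stretch, starting 79 bases before the gene start in CXCL1 and 78 in CXCL2. CXCL8, CXCL11 and IL6 held 1 κB match each. In IL1A, which has 2 windows, and in IL1B neither motif was matched, and a match in any gene is a description of letters, not a measured binding site. The 5 CXC genes are all on chromosome 4, with CXCL8 at chr4:73740569-73743716, CXCL1 at chr4:73869393-73871308 and CXCL2 at chr4:74097040-74099195. CXCL10 is at chr4:76021118-76023497 and CXCL11 at chr4:76033682-76036070. IL1A (chr2:112773925-112784493) and IL1B (chr2:112829751-112836779) are neighbours on chromosome 2, CCL2 (chr17:34255285-34257203) and CCL5 (chr17:35871491-35880360) are on chromosome 17, and IL6 (chr7:22727200-22731998) is on chromosome 7.

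Values are scaled reads, read here as estimated reads per gene divided by a size factor of the library, so they are comparable between libraries of 1 line but not between lines. Depth was 19.4–31.7 M reads per MCF10A library and 23.8–40.4 M per hTERT RPE-1 library, and 3 reads were worth 2.49–4.02 and 2.35–4.40 scaled reads. RPS28, a ribosomal protein gene that served as the check of the mimics, was lower in all 4 comparisons, with log2 fold changes of -2.79 (hsa-miR-28-5p) and -2.65 (hsa-miR-708-5p) in MCF10A and of -4.47 and -4.40 in hTERT RPE-1 (SE 0.17 and 0.18 by line). All 10 breast epithelial markers were listed in MCF10A. In hTERT RPE-1, 7 of 10 pigment epithelial markers were listed, while RPE65, TYR and CRX were not, and 3 of 10 breast markers were listed. Of 10 immune cell markers, 6 were listed in MCF10A and 3 in hTERT RPE-1, and the T cell marker CD3E and the natural killer cell marker NKG7 were listed in neither. The summed level of the immune markers was 504–782 scaled reads with siNT, 771–1252 under hsa-miR-28-5p and 1225–1632 under hsa-miR-708-5p in MCF10A. The corresponding sums for hTERT RPE-1 were 626–738, 699–3922 and 4961–7460. Single immune markers went in opposite directions within these sums. In hTERT RPE-1 CD68 rose by 2.06 and 4.04 on the log2 scale, while CSF1R, the other marker tested, fell (-0.53 and -0.55). Of the 5 tested in MCF10A, 2 rose, HLA-DRA (4.96) and CSF1R (2.35), and 1, CD14 (-0.87), fell under hsa-miR-28-5p. Under hsa-miR-708-5p 3 rose, HLA-DRA (4.52), CSF1R (2.52) and CD68 (1.66), and 0 fell in that line. The breast markers summed to 239824–248462, 163923–174552 and 138087–166877 scaled reads in the same order of groups in MCF10A, and the pigment epithelial markers to 2949–4344, 1953–2076 and 2112–2283 in hTERT RPE-1. The part of these markers in the results below was not tested. In hTERT RPE-1 the library of hsa-miR-28-5p replicate 1 stood apart: its interferon reference genes summed to 26844 scaled reads against 356219 and 214518 in replicates 2 and 3, and ribosomal RNA genes took 15.1% of its reads against 4.23–7.20% in the other 8.

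The first question was how each mimic changed the ligands against siNT. In MCF10A the interferon-driven pair, CXCL11 and CCL5, rose under hsa-miR-708-5p and passed no threshold under hsa-miR-28-5p. In the NF-κB-driven group, IL1A rose under hsa-miR-708-5p and CXCL1 rose under hsa-miR-28-5p. In hTERT RPE-1 IL1B, CXCL2, IL1A and CXCL8 rose under hsa-miR-708-5p, IL1B and CXCL2 rose under hsa-miR-28-5p, and CCL2 fell with both. IL6 missed the threshold in both lines. These calls are from the fit without a replicate block. With it, CXCL2 under both mimics (adjusted p = 0.00405 and 0.000872) and CXCL1 under hsa-miR-708-5p (adjusted p = 0.0164) also passed in MCF10A. Both mimics were compared with the same 3 siNT libraries of a line, and in bulk RNA a change in the number of expressing cells and a change in mRNA per cell cannot be told apart.

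**Figure D1:**
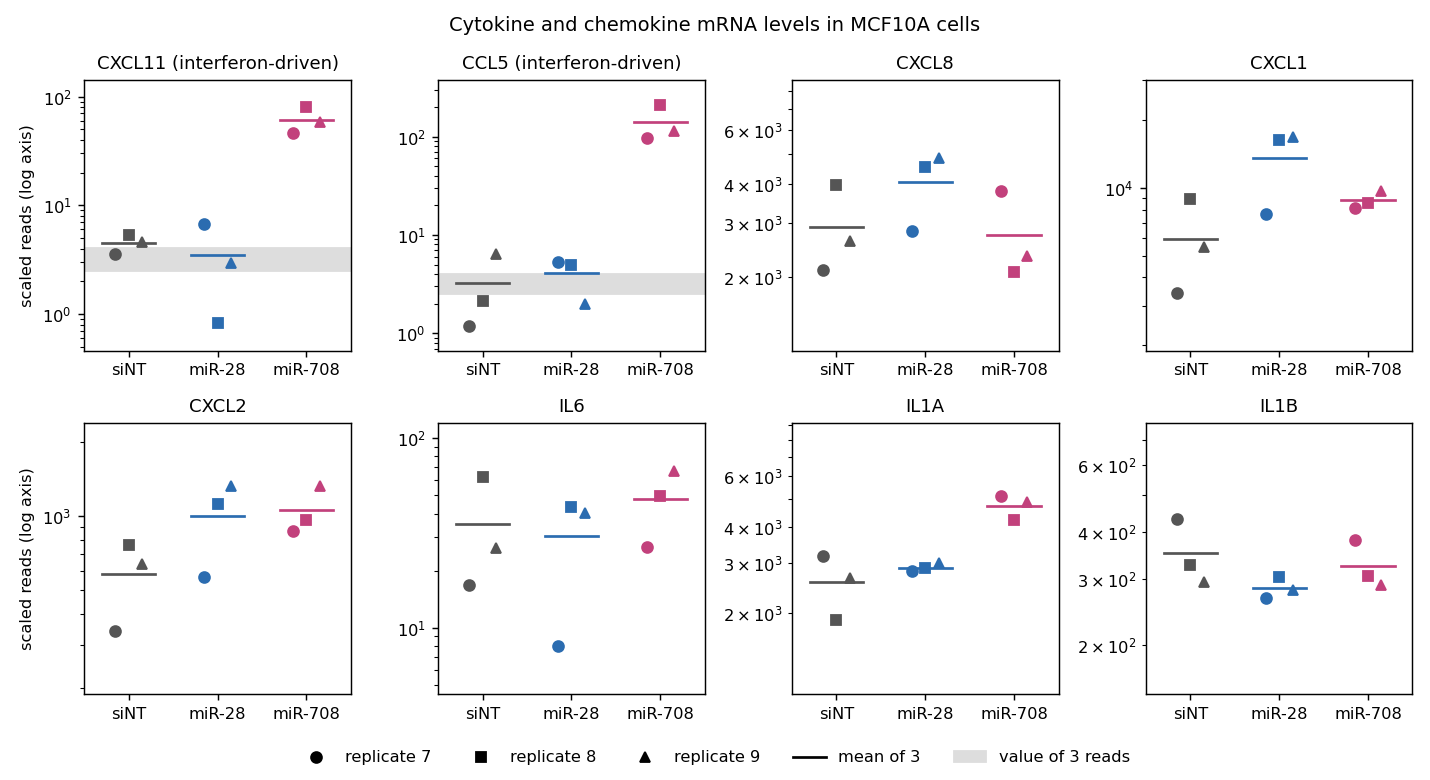
Scaled reads of the 8 ligands listed in MCF10A on a log axis, 1 point per library (circle, square and triangle for replicates 7, 8 and 9), with a bar at the mean of 3 and a grey band at the value of 3 reads. CXCL11 and CCL5 lie near or under 3 reads with siNT and hsa-miR-28-5p and between 46.6 and 210.6 under hsa-miR-708-5p, and the 3 hsa-miR-708-5p libraries of IL1A lie above the other 6.

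CCL5 had 1.20, 2.14 and 6.39 scaled reads in the siNT libraries of MCF10A (replicates 7, 8 and 9), 5.36, 4.98 and 1.97 under hsa-miR-28-5p, and 95.9, 210.6 and 114.6 under hsa-miR-708-5p. All 3 hsa-miR-708-5p libraries were far above the other 6, which held only a few reads each. The log2 fold change under hsa-miR-708-5p was 5.17 ± 0.57 (SE, n = 3 per group, adjusted p = 0.000109). The pooled reads gave a ratio of 39.6 to siNT (95% exact interval 21.3–83.1, counting error only). Under hsa-miR-28-5p the log2 fold change was 0.38 ± 0.57 (adjusted p = 0.658), and the pooled ratio of 1.16 had an interval of 0.459–2.99.

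CXCL11 had 3.59, 5.36 and 4.56 scaled reads with siNT, 6.70, 0.829 and 2.96 under hsa-miR-28-5p and 46.6, 79.4 and 58.2 under hsa-miR-708-5p. Again the hsa-miR-708-5p libraries stood clear of the others, and replicate 8 was the highest of them, as for CCL5. Under hsa-miR-708-5p the log2 fold change was 3.48 ± 0.56 (adjusted p = 0.000978), and the pooled ratio was 13.4 (7.65–25.6). Under hsa-miR-28-5p it was -0.51 ± 0.56 (adjusted p = 0.539). Both genes passed the filter on low values through the hsa-miR-708-5p group alone.

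IL1A, which encodes a form of IL-1 that is active without cleavage, had 3161, 1889 and 2657 scaled reads with siNT, 2808, 2866 and 2980 under hsa-miR-28-5p and 5098, 4204 and 4873 under hsa-miR-708-5p. The hsa-miR-708-5p libraries were above all others, and the other groups overlapped. Its log2 fold change was 0.91 ± 0.16 (adjusted p = 0.00150) under hsa-miR-708-5p and 0.20 ± 0.16 (adjusted p = 0.388) under hsa-miR-28-5p.

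CXCL1, a neutrophil chemokine, had 3410, 8934 and 5459 scaled reads with siNT, 7675, 16260 and 16703 under hsa-miR-28-5p and 8148, 8511 and 9693 under hsa-miR-708-5p. Replicate 7 was the lowest library in every group, and the siNT library of replicate 8 overlapped both mimics. For CXCL1 the log2 fold change was 1.22 ± 0.33 (adjusted p = 0.0240) under hsa-miR-28-5p and 0.67 ± 0.33 (adjusted p = 0.145) under hsa-miR-708-5p. The call under hsa-miR-28-5p was lost without siNT replicate 7 (0.87, adjusted p = 0.0815), siNT replicate 9 (1.21, adjusted p = 0.0644), hsa-miR-28-5p replicate 8 (1.04, adjusted p = 0.0907) or hsa-miR-28-5p replicate 9 (1.02, adjusted p = 0.0845). Under hsa-miR-708-5p, CXCL1 passed the threshold with the replicate number as a block (adjusted p = 0.0164) or without siNT replicate 8 (1.02, adjusted p = 0.0355).

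CXCL2, the close relative of CXCL1, had 341.97, 766 and 641 scaled reads with siNT, 567, 1120 and 1323 under hsa-miR-28-5p and 873, 966 and 1327 under hsa-miR-708-5p. The hsa-miR-708-5p libraries were all above siNT, while 1 hsa-miR-28-5p library lay inside the siNT range. The log2 fold changes of 0.77 ± 0.33 and 0.91 ± 0.33 missed the threshold (adjusted p = 0.115 and 0.0553). In the fit with the replicate block they passed it (adjusted p = 0.00405 and 0.000872). So did the value of hsa-miR-28-5p without its replicate 7 (1.14, adjusted p = 0.0200) and that of hsa-miR-708-5p without siNT replicate 8 (1.15, adjusted p = 0.0388). CXCL1, CXCL2 and the related CXCL3 share most of their coding bases, 93.5% between CXCL1 and CXCL2 and 94.4% between CXCL2 and CXCL3, so reads shared among them were divided by estimation and their separate values are uncertain.

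CXCL8, IL1B and IL6 passed no threshold in MCF10A. CXCL8 had 2107, 3974 and 2612 scaled reads with siNT, 2822, 4563 and 4851 under hsa-miR-28-5p and 3801, 2074 and 2331 under hsa-miR-708-5p, and all groups overlapped. Its log2 fold changes were 0.50 (95% interval -0.10 to 1.11) and -0.08 (-0.69 to 0.52). IL1B was 432, 327 and 294 with siNT, 267, 303 and 280 under hsa-miR-28-5p and 380, 304 and 288 under hsa-miR-708-5p. IL1B stayed between 267 and 432 scaled reads in all 9 libraries, with log2 fold changes of -0.29 (-0.67 to 0.08) and -0.11 (-0.48 to 0.27). IL6 spread most, from 16.8 to 62.1 with siNT, from 8.04 to 43.1 under hsa-miR-28-5p and from 26.7 to 66.8 under hsa-miR-708-5p, so its intervals are wide (-1.71 to 1.11 and -0.87 to 1.96).

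Of the 8 ligands tested in MCF10A, 1 passed the threshold under hsa-miR-28-5p, where 22.7% of all 14726 genes tested did so (10.7% higher). Under hsa-miR-708-5p 3 passed it, where 32.8% of genes did so (15.5% higher), but CXCL11 and CCL5 are among the 3 and could be tested only through the group in which they are high, so nothing is read from this count. No ligand was called lower in this line by limma, and none was lower at an unadjusted p under 0.05. With the replicate block the counts of higher ligands were 2 and 5, and the 5 again include CXCL11 and CCL5. The share of all genes called with the block is not given here, so nothing is read from these counts either. The median log2 fold change of the 6 NF-κB-driven ligands was 0.35 under hsa-miR-28-5p and 0.61 under hsa-miR-708-5p, while the median over all genes was 0.0056 and -0.0047.

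**Figure D2:**
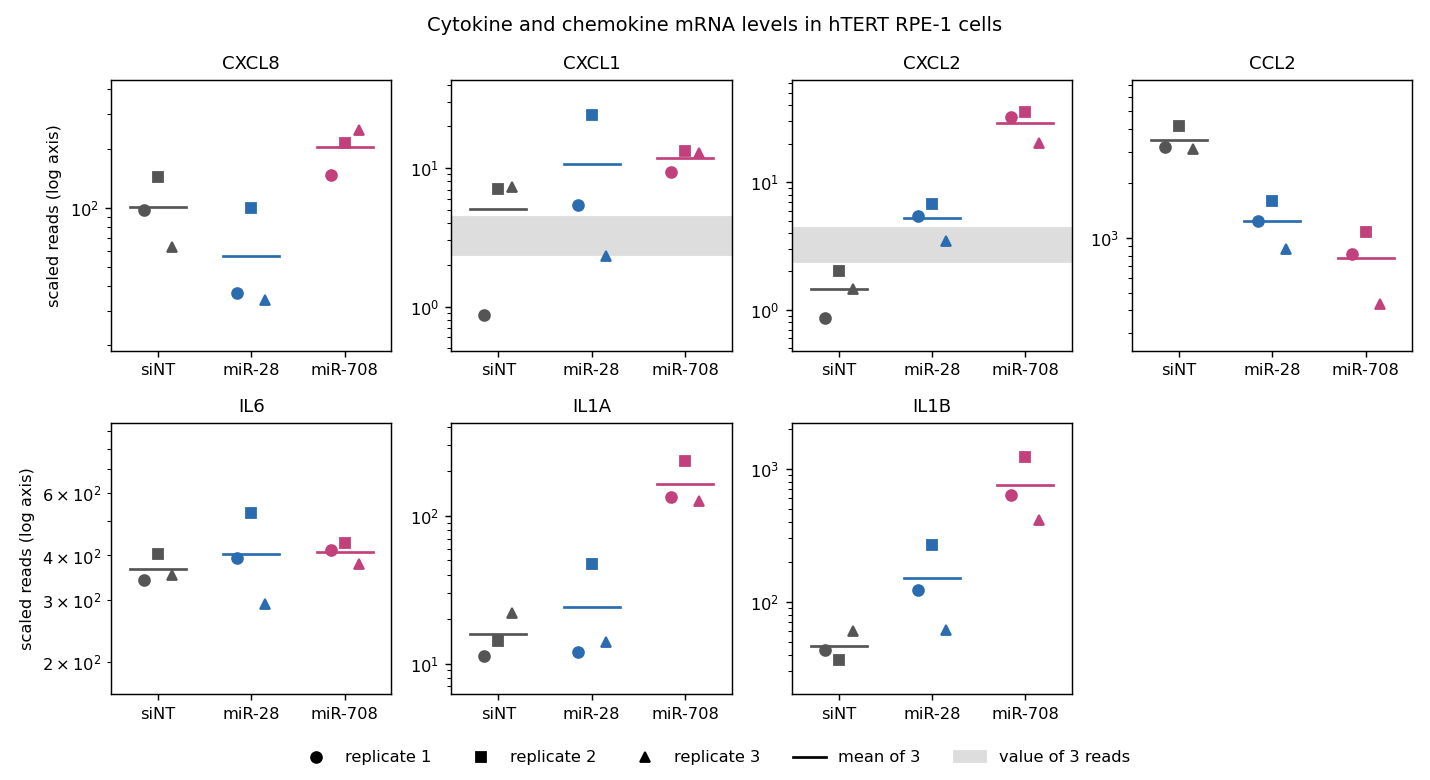
Scaled reads of the 7 ligands listed in hTERT RPE-1 on a log axis, 1 point per library (circle, square and triangle for replicates 1, 2 and 3), with a bar at the mean of 3 and a grey band at the value of 3 reads. IL1A, IL1B and CXCL2 are highest in the 3 hsa-miR-708-5p libraries, CCL2 is highest in the 3 siNT libraries, and hsa-miR-28-5p replicate 2 lies above the other libraries of its group.

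IL1B, whose product is cleaved by caspase-1 before release, had 43.2, 36.5 and 60.2 scaled reads with siNT in hTERT RPE-1 (replicates 1, 2 and 3), 122, 267 and 61.7 under hsa-miR-28-5p and 641, 1231 and 412 under hsa-miR-708-5p. The 3 groups did not overlap, though hsa-miR-28-5p replicate 3 was close to the highest siNT library. IL1B had a log2 fold change of 3.88 ± 0.50 (adjusted p = 6.71e-05) under hsa-miR-708-5p and 1.45 ± 0.50 (adjusted p = 0.0342) under hsa-miR-28-5p. The second call was lost without hsa-miR-28-5p replicate 2 (0.92, adjusted p = 0.107), siNT replicate 1 (1.41, adjusted p = 0.0844) or siNT replicate 2 (1.29, adjusted p = 0.103), and was kept without hsa-miR-28-5p replicate 1 (1.48, adjusted p = 0.0468).

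IL1A had 11.2, 14.2 and 22.0 scaled reads with siNT, 11.998, 46.8 and 14.0 under hsa-miR-28-5p and 133, 236 and 125 under hsa-miR-708-5p. The hsa-miR-708-5p libraries stood clear of the other 6, and replicate 2 was the only hsa-miR-28-5p library above the siNT range. The log2 fold change was 3.29 ± 0.48 (adjusted p = 0.000165) under hsa-miR-708-5p and 0.37 ± 0.48 (adjusted p = 0.548) under hsa-miR-28-5p. Without hsa-miR-28-5p replicate 2 the second value was -0.22.

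CXCL2 had 0.863, 2.03 and 1.47 scaled reads with siNT, 5.45, 6.77 and 3.49 under hsa-miR-28-5p and 32.2, 35.2 and 20.4 under hsa-miR-708-5p. The groups did not overlap, but the siNT libraries held 4 reads in all and the hsa-miR-28-5p libraries 15. CXCL2 had a log2 fold change of 3.62 ± 0.43 (adjusted p = 4.20e-05) under hsa-miR-708-5p, and the pooled ratio was 20.6 (7.80–77.0). Under hsa-miR-28-5p they were 1.34 ± 0.43 (adjusted p = 0.0267) and 3.73 (1.19–15.4). That call was lost without siNT replicate 1 (1.16, adjusted p = 0.0783), hsa-miR-28-5p replicate 1 (1.30, adjusted p = 0.0636) or hsa-miR-28-5p replicate 2 (1.16, adjusted p = 0.0883), and with a pseudocount of 5 (0.66, adjusted p = 0.0784). CXCL2 passed the filter through the hsa-miR-708-5p group alone.

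CXCL8 had 97.6, 143 and 63.1 scaled reads with siNT, 37.1, 99.3 and 33.8 under hsa-miR-28-5p and 147, 213 and 248 under hsa-miR-708-5p. The hsa-miR-708-5p libraries were the highest 3, while hsa-miR-28-5p replicate 2 lay inside the siNT range. A log2 fold change of 1.04 ± 0.41 under hsa-miR-708-5p was just past the threshold (adjusted p = 0.0482), and that of -0.92 ± 0.41 under hsa-miR-28-5p missed it (adjusted p = 0.0898). The first call was lost without siNT replicate 1 (1.05, adjusted p = 0.0941), siNT replicate 3 (0.74, adjusted p = 0.177), hsa-miR-708-5p replicate 2 (0.99, adjusted p = 0.114) or hsa-miR-708-5p replicate 3 (0.88, adjusted p = 0.144). The second passed the threshold without hsa-miR-28-5p replicate 2 (-1.41, adjusted p = 0.00592) or siNT replicate 3 (-1.22, adjusted p = 0.0492).

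CCL2, the monocyte chemokine, was the one ligand that fell. It had 3184, 4145 and 3088 scaled reads with siNT, 1240, 1603 and 868 under hsa-miR-28-5p and 813, 1077 and 431 under hsa-miR-708-5p. All 6 mimic libraries were below all siNT libraries, and replicate 2 was the highest in each group. The log2 fold change was -1.52 ± 0.31 (adjusted p = 0.00236) under hsa-miR-28-5p and -2.25 ± 0.31 (adjusted p = 0.000103) under hsa-miR-708-5p. Without hsa-miR-28-5p replicate 1, the library that stood apart, the first value was -1.54 (adjusted p = 0.00343).

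CXCL1 and IL6 passed no threshold in hTERT RPE-1. CXCL1 had 0.863, 7.09 and 7.34 scaled reads with siNT, 5.45, 24.1 and 2.33 under hsa-miR-28-5p and 9.42, 13.3 and 12.8 under hsa-miR-708-5p, which is few reads per library, and its intervals are wide (-1.02 to 2.42 and -0.37 to 3.06). IL6 was well measured, with 341, 404 and 352 scaled reads with siNT, 393, 527 and 292 under hsa-miR-28-5p and 414, 433 and 379 under hsa-miR-708-5p. All 3 groups of IL6 overlapped, and the log2 fold changes of IL6 had intervals from -0.30 to 0.51 and from -0.25 to 0.57. With library size scaling, which moved the median of all genes by 0.32 in that comparison, IL6 under hsa-miR-708-5p passed the threshold (0.48, adjusted p = 0.0393).

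Of the 7 ligands tested in hTERT RPE-1, all NF-κB-driven, 2 rose and 1 fell under hsa-miR-28-5p, where 46.8% of 14527 genes tested passed the threshold (23.3% higher, 23.5% lower). Under hsa-miR-708-5p 4 rose and 1 fell, where 62.1% of genes passed it (30.9% higher, 31.2% lower). The median log2 fold change was 0.37 under hsa-miR-28-5p and 1.34 under hsa-miR-708-5p, against 0.0061 and 0.0021 over all genes. These values and the counts for hTERT RPE-1 further on include CXCL2, which could be tested only through the group in which it is high.

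**Figure D3:**
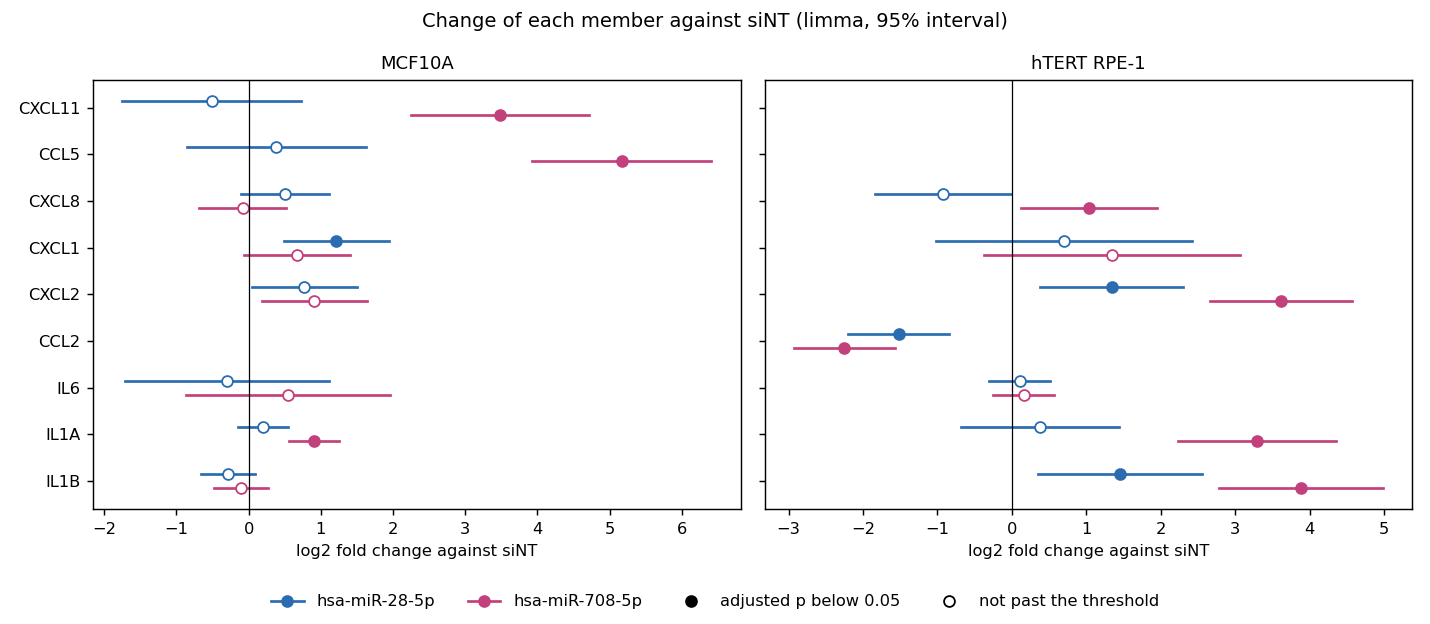
Log2 fold change against siNT of each ligand in MCF10A (left) and hTERT RPE-1 (right), blue for hsa-miR-28-5p and magenta for hsa-miR-708-5p, with 95% intervals and filled points where the adjusted p is below 0.05. CCL5 (5.17) and CXCL11 (3.48) lie furthest right in MCF10A, IL1B (3.88) and CXCL2 (3.62) in hTERT RPE-1, and CCL2 (-1.52 and -2.25) is the only ligand called lower.

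The second question was whether the mimics, which share a seed, differed from each other. In MCF10A they differed in the interferon-driven ligands: CCL5 was higher under hsa-miR-708-5p than under hsa-miR-28-5p by 4.79 ± 0.57 on the log2 scale (adjusted p = 0.000647) and CXCL11 by 3.997 ± 0.56 (adjusted p = 0.00268). These were 2 of 8 ligands, where 1.55% of all genes passed the threshold (1.28% higher), and nothing is read from this count, since both could be tested only through the group in which they are high. IL1A differed by 0.71 ± 0.16 and missed the threshold (adjusted p = 0.0523), but passed it in a fit of the 6 libraries of both mimics alone (adjusted p = 0.00984) and with library size scaling (adjusted p = 0.0379). For the 5 remaining NF-κB-driven ligands the 95% intervals of the difference all included 0, from -0.59 to 0.87 for CXCL2, from -1.28 to 0.19 for CXCL1, from -1.20 to 0.02 for CXCL8, from -0.19 to 0.56 for IL1B and from -0.57 to 2.26 for IL6.

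In hTERT RPE-1 they differed in 4 of 7 ligands, all higher under hsa-miR-708-5p, where 21.2% of all genes passed the threshold (9.88% higher). The differences were 2.92 ± 0.48 for IL1A (adjusted p = 0.00297), 2.43 ± 0.50 for IL1B (adjusted p = 0.00762), 2.28 ± 0.43 for CXCL2 (adjusted p = 0.00551) and 1.96 ± 0.41 for CXCL8 (adjusted p = 0.00873). Without hsa-miR-28-5p replicate 1 they were 2.57, 2.41, 2.32 and 1.75, with adjusted p of 0.00671, 0.0155, 0.0147 and 0.0222. CCL2 was lower under hsa-miR-708-5p by a difference of -0.73 ± 0.31 that missed the threshold (adjusted p = 0.115) and passed it with the replicate block (adjusted p = 0.0119) or without hsa-miR-708-5p replicate 2 (-1.02, adjusted p = 0.0460). CXCL1 (-1.08 to 2.36) and IL6 (-0.35 to 0.46) had intervals that included 0.

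The third question was whether the lines responded differently. Under hsa-miR-708-5p the response was stronger in hTERT RPE-1 for IL1B by 3.99 ± 0.53 (adjusted p = 6.28e-05), for CXCL2 by 2.71 ± 0.55 (adjusted p = 0.000590) and for IL1A by 2.39 ± 0.51 (adjusted p = 0.00230). These were 3 of the 6 ligands tested in both lines, where 39.8% of 13339 genes passed the threshold (20.2% in that direction). The CXCL8 difference of 1.12 ± 0.50 missed it (adjusted p = 0.0813), and passed it without MCF10A siNT replicate 7 (1.33, adjusted p = 0.0478), MCF10A hsa-miR-708-5p replicate 7 (1.39, adjusted p = 0.0318) or hTERT RPE-1 siNT replicate 2 (1.41, adjusted p = 0.0458). Under hsa-miR-28-5p the response of IL1B was higher by 1.74 ± 0.53 (adjusted p = 0.0297) and that of CXCL8 lower by -1.43 ± 0.50 (adjusted p = 0.0446), where 23.4% of genes passed the threshold (12.1% higher, 11.3% lower). Both of these calls were lost when certain single libraries were left out. The IL1B difference was 1.21 (adjusted p = 0.0791) without hTERT RPE-1 hsa-miR-28-5p replicate 2, 1.70 (adjusted p = 0.0739) and 1.59 (adjusted p = 0.0918) without siNT replicates 1 and 2 of that line, and 1.58 (adjusted p = 0.0518) without MCF10A siNT replicate 7. The CXCL8 call was lost without any 1 of 8 libraries: MCF10A siNT replicates 7 and 9 (-1.23 and -1.38), MCF10A hsa-miR-28-5p replicates 8 and 9 (-1.33 and -1.28), hTERT RPE-1 siNT replicates 1 and 2 (-1.42 and -1.14) and hTERT RPE-1 hsa-miR-28-5p replicates 1 and 3 (-1.22 and -1.15), with adjusted p up to 0.142. The interferon-driven ligands could not be compared between lines here.

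**Figure D4:**
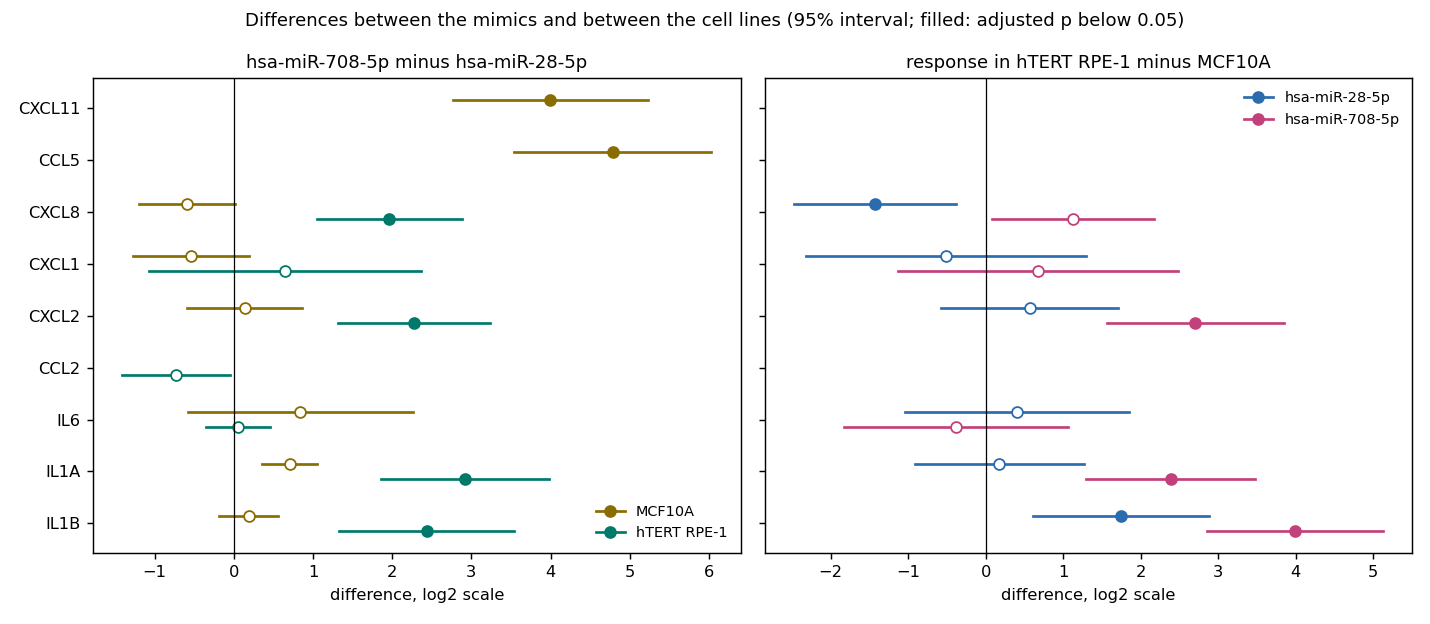
Differences on the log2 scale with 95% intervals, filled where the adjusted p is below 0.05: hsa-miR-708-5p minus hsa-miR-28-5p within each line (left), and the response against siNT in hTERT RPE-1 minus that in MCF10A for each mimic (right). On the left CXCL11 and CCL5 separate the mimics in MCF10A (3.997 and 4.79) and CXCL8, CXCL2, IL1A and IL1B in hTERT RPE-1 (1.96 to 2.92), and on the right IL1B under hsa-miR-708-5p lies furthest from 0 (3.99).

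The other genes of the pathways were described by lists. Their counts are to be read beside the share of all genes that passed the threshold in either direction, which in MCF10A was 22.7% under hsa-miR-28-5p and 32.8% under hsa-miR-708-5p. The corresponding shares for hTERT RPE-1 were 46.8% and 62.1%. For counts with the replicate block or without 1 library the matching share is not given. A shift in such a count is therefore not read as a result about its list. Interferon-stimulated reference genes are antiviral genes such as MX1, IFIT1 and the OAS family that interferon switches on. In MCF10A all 12 rose under hsa-miR-708-5p, with a median log2 fold change of 6.53, while 7 rose and 1, OAS1 (-0.70, named after its value was seen), fell under hsa-miR-28-5p, with a median of 0.82. The count of 7 was 4 without siNT replicate 8 or 9 or hsa-miR-28-5p replicate 8 or 9, and OAS1 was no longer called without siNT replicate 8 or hsa-miR-28-5p replicate 8 or 9. IFI6 went from a mean of 25.6 scaled reads with siNT to 197 under hsa-miR-28-5p and 16119 under hsa-miR-708-5p, and MX1 from 8.34 to 37.1 and 4440. RSAD2 went from 16.6 to 42.8 and 5693. MX1 had a siNT mean under the filter value of 10, so it could be tested only with the help of mimic libraries. The counts of this list include it. All 12 were higher under hsa-miR-708-5p than under hsa-miR-28-5p. CXCL11 and CCL5 were also high under hsa-miR-708-5p, but they passed the filter through that group alone, so nothing is read from this likeness. Over the 9 libraries of MCF10A the correlation of log2 values was 0.93 between CXCL11 and CCL5. This is a description over 3 groups that differ, of which only the hsa-miR-708-5p group held more than a few reads.

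In hTERT RPE-1 all 11 listed interferon-stimulated genes rose with both mimics, with medians of 5.56 under hsa-miR-28-5p and 6.98 under hsa-miR-708-5p. OAS1 went from 5.45 to 5018 and 7638 scaled reads, OAS2 from 4.47 to 2742 and 5270 and MX1 from 9.46 to 2410 and 3570. OAS1, OAS2 and MX1 had siNT means under the filter value of 10 and could be tested only with the help of mimic libraries. The count of 11 includes them. The difference between the mimics passed the threshold for 0 of the 11 (limma, and 0 at an unadjusted p under 0.05), with a median difference of 1.35. Without hsa-miR-28-5p replicate 2 it passed for 7 of the 11. Leaving out 1 library at a time gave 1509–4083 calls over all genes in this comparison, against 3084 with all libraries. The share of all genes for that run is not given, so nothing is read from the 7. In that line the interferon list summed to 3934–4463 with siNT, 26844–356219 under hsa-miR-28-5p and 262464–331724 under hsa-miR-708-5p. Replicate 2, with the highest sum of the hsa-miR-28-5p group, was also the highest of its group for all 7 ligands. The order of the other libraries of that group was not shared. Replicate 3, with a sum of 214518 against 26844 in replicate 1, was below replicate 1 for every ligand except IL1A.

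Among 16 transcription factors of the interferon route and its partners (IRF, STAT, AP-1 and C/EBP factors), 15 were tested in each line. In MCF10A 4 rose under hsa-miR-28-5p, and 9 rose and 1 fell under hsa-miR-708-5p. The hTERT RPE-1 cells had 11 that rose under hsa-miR-28-5p, and 12 rose and 1 fell under hsa-miR-708-5p. IRF9 rose by 0.88 and 2.93 in MCF10A and by 2.26 and 2.48 in hTERT RPE-1. IRF7, which amplifies interferon production, rose by 3.83 in MCF10A under hsa-miR-708-5p, and was -0.10 (adjusted p = 0.866) under hsa-miR-28-5p. IRF5 fell under hsa-miR-708-5p in both lines (-0.93 and -0.87), but the call in hTERT RPE-1 was lost without any 1 of the 6 libraries compared. ATF3, a stress-induced factor, rose by 2.05 and 3.03 in hTERT RPE-1.

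NF-κB subunits, activators and feedback targets moved in both directions. Of 35 tested in MCF10A, 5 rose and 3 fell under hsa-miR-28-5p and 11 rose and 5 fell under hsa-miR-708-5p, with medians of 0.21 and 0.26. Of 33 tested in hTERT RPE-1, 9 rose and 10 fell, and 13 rose and 11 fell, with medians of -0.13 and 0.05. In MCF10A the 5 that rose were 8 without hsa-miR-28-5p replicate 7 and 9 with the replicate block, the 11 were 7 without hsa-miR-708-5p replicate 9 and 17 with the block, and the 5 that fell were 2 without siNT replicate 9 or hsa-miR-708-5p replicate 9. RELA, the main activating subunit, fell in all 4 comparisons, from 1066 scaled reads to 726 and 603 in MCF10A and from 1702 to 746 and 540 in hTERT RPE-1. NFKB1 fell in MCF10A (-0.47 and -0.48). The targets LCN2 (1.25 and 2.32), BIRC3 (1.02 and 1.09) and NFKBIZ (0.65 and 0.86) rose with both mimics in MCF10A. In hTERT RPE-1 the adaptor gene MYD88 (1.85 and 2.14) and PTGS2 (1.42 and 2.66), which encodes cyclooxygenase-2, rose, while TNFAIP2 (-1.89 and -1.68) and SAA2 (-1.90 and -1.56) fell.

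Of 47 other cytokines and chemokines, 22 were tested in MCF10A and 17 in hTERT RPE-1. In MCF10A 3 rose and 1 fell under hsa-miR-28-5p and 6 rose and 1 fell under hsa-miR-708-5p. The 3 became 1 without siNT replicate 8 or 9 or hsa-miR-28-5p replicate 9, and the 6 became 3 without siNT replicate 9 or hsa-miR-708-5p replicate 8, while with the block 4 fell under hsa-miR-28-5p. IL36G, an epithelial IL-1 family cytokine, rose from 8.22 to 23.4 and 50.2 scaled reads, TNFSF10, the death ligand TRAIL, was 244.7, 331.2 and 1007 and rose under hsa-miR-708-5p, and CXCL5, a neutrophil chemokine, fell from 234.7 to 79.2 and 75.7. LIF, an IL-6 family cytokine, went in opposite directions in the lines: it rose in MCF10A (1.14 and 1.07) and fell in hTERT RPE-1 (-1.08 and -0.77). In hTERT RPE-1 4 rose and 5 fell under hsa-miR-28-5p and 7 rose and 3 fell under hsa-miR-708-5p. The 4 became 7 without hsa-miR-28-5p replicate 1, and the 5 became 3 without that library or siNT replicate 1 or 2. CXCL3, beside CXCL1 and CXCL2 in sequence, had 3.73, 7.62 and 44.3 scaled reads and rose by 3.32 under hsa-miR-708-5p, as CXCL2 did. Like CXCL2, it could be tested only through the hsa-miR-708-5p group. TNFSF13B rose by 2.24 and 2.37 and IL7 by 1.34 and 2.08, while CCL28 fell (-1.64 and -1.45). TNFSF13B in hTERT RPE-1 and IL36G in MCF10A had siNT means under the filter value of 10 (7.03 and 8.22). Both could be tested only with the help of mimic libraries. The third gene that rose under hsa-miR-28-5p in MCF10A, named after its value was seen, was IL11 (1.44).

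Receptors and antagonists were tested for 17 of 23 genes in MCF10A and 9 in hTERT RPE-1. In MCF10A 1 rose and 2 fell under hsa-miR-28-5p and 3 rose and 2 fell under hsa-miR-708-5p. The 3 became 1 without siNT replicate 7 or 8 or hsa-miR-708-5p replicate 8 or 9, 7 without hsa-miR-708-5p replicate 7 and 6 with the block, which also called 4 higher under hsa-miR-28-5p. IL1RN, the soluble antagonist of IL-1, fell from 819 to 322 and 354.5 scaled reads, and IL1RAP, the shared IL-1 co-receptor, fell from 1642 to 844 and 976. CXCR4 rose from 79.4 to 350 and 335, and IL1R1 rose by 1.46 under hsa-miR-708-5p. Of the receptors in hTERT RPE-1, 1 rose and 1 fell under hsa-miR-28-5p and 3 rose and 1 fell under hsa-miR-708-5p. IL6R rose by 2.12 and 2.76, IL1R1 rose by 0.84 and TNFRSF1B by 3.61 under hsa-miR-708-5p, and ACKR3, a scavenging chemokine receptor, fell from 1825 to 1027 and 334 scaled reads.

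Genes that process and release IL-1 numbered 10 tested in MCF10A and 8 in hTERT RPE-1. NLRP3, the sensor of the inflammasome, rose from 19.6 to 82.6 and 157 scaled reads in MCF10A. CASP1, which cleaves pro-IL-1β, rose under hsa-miR-708-5p in MCF10A by 0.70, and in hTERT RPE-1 it rose from 256 to 1285 and 2046. CASP4 rose in hTERT RPE-1 by 1.18 and 2.11. The calpain genes CAPN1 (-0.81 and -1.16) and CAPNS1 (-1.09 and -1.77), whose product cleaves pro-IL-1α, fell in hTERT RPE-1. In that line 2 rose and 2 fell under hsa-miR-28-5p and 3 rose and 4 fell under hsa-miR-708-5p, and in MCF10A 1 rose under hsa-miR-28-5p and 3 rose and 2 fell under hsa-miR-708-5p. The last 2 calls were lost without any siNT library or without hsa-miR-708-5p replicate 8 or 9.

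Regulators of AU-rich mRNA decay, 16 in each line, had medians close to 0, from -0.09 to -0.04 over the 4 comparisons. In MCF10A 1 rose and 1 fell under hsa-miR-28-5p and 1 rose and 4 fell under hsa-miR-708-5p. The 4 became 1 without siNT replicate 9 or hsa-miR-708-5p replicate 9 and 2 without replicate 8 of either group, and each count of 1 became 0 without at least 4 of the 6 libraries, taken 1 at a time. The hTERT RPE-1 counts were 5 that rose and 5 that fell, and 6 rose and 4 fell, and the 5 that fell under hsa-miR-28-5p were 3 without siNT replicate 1. ZC3H12C, of the regnase family of ribonucleases, rose in all 4 comparisons, by 0.52 and 0.48 in MCF10A and by 1.11 and 1.90 in hTERT RPE-1. HNRNPD, the AU-rich binding protein AUF1, fell in MCF10A (-0.58 and -0.53). ARID5A, which stabilises cytokine mRNAs, rose by 0.89 and 1.30 in hTERT RPE-1, and DUSP1, the phosphatase of p38, fell (-0.79 and -0.81).

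**Figure D5:**
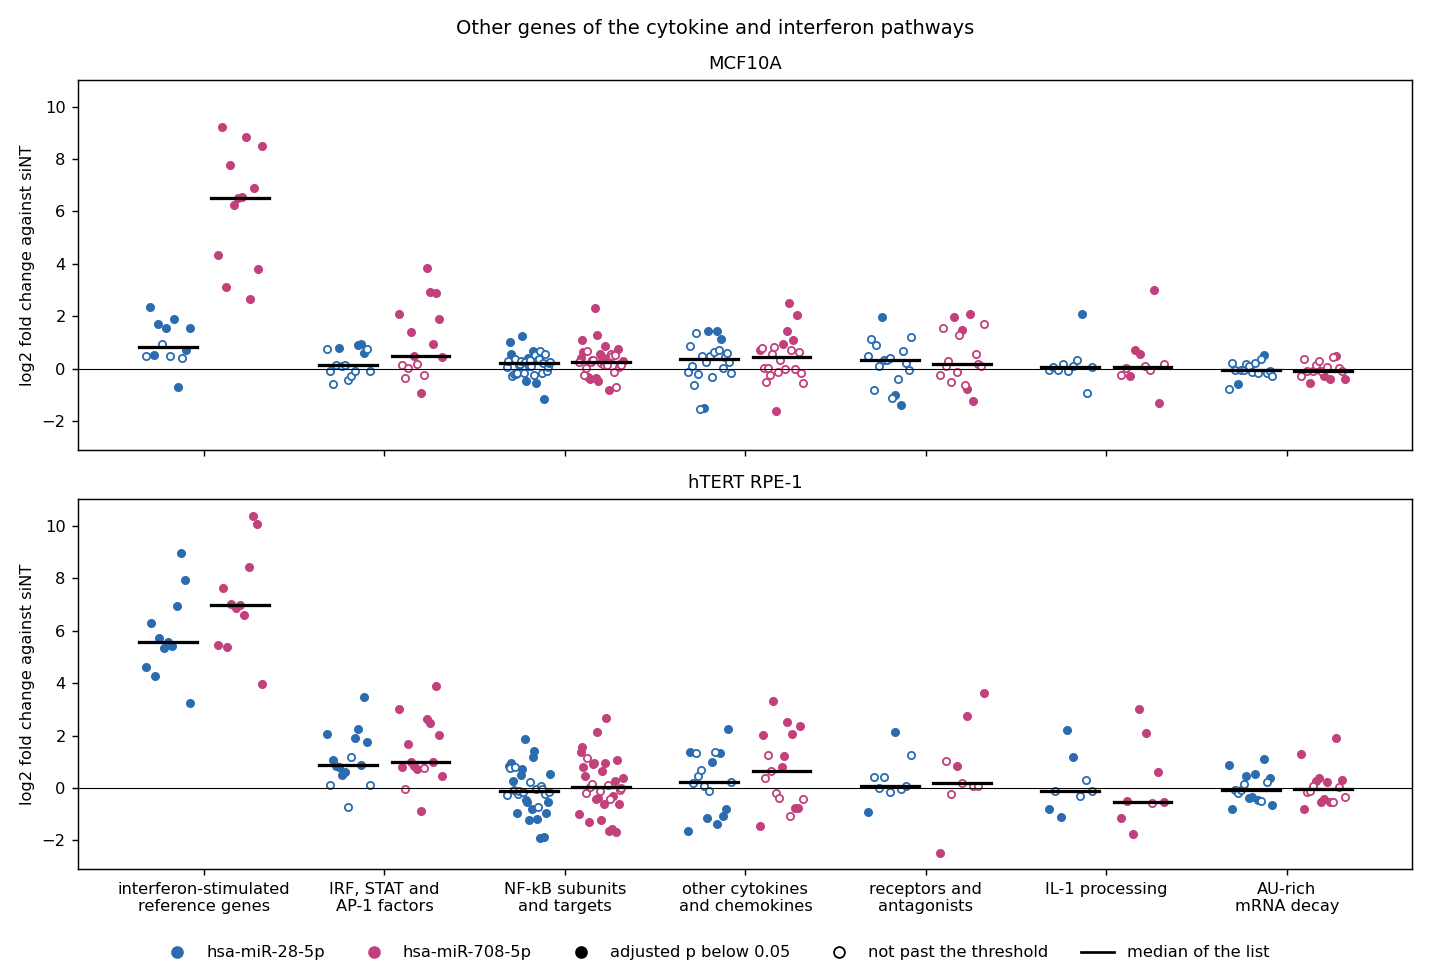
Log2 fold change against siNT of every tested gene of 7 lists (1 point per gene, filled where the adjusted p is below 0.05, black bar at the median), blue for hsa-miR-28-5p and magenta for hsa-miR-708-5p, with MCF10A above and hTERT RPE-1 below. The interferon list has medians of 0.82 and 6.53 in MCF10A (top) and of 5.56 and 6.98 in the hTERT RPE-1 panel, while the medians of the NF-κB list lie between -0.13 and 0.26.

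Finally, the genes whose levels most resembled those of a ligand over the 9 libraries of a line were listed. In MCF10A they were PIGY (Pearson r = 0.96), SLC25A15 (0.92) and GPR39 (0.92) for CXCL8, and RASL11B (0.95), STX2 (0.95) and FHDC1 (0.94) for CXCL1. CXCL1 in MCF10A and CCL2 in hTERT RPE-1, the ligands with the highest mean scaled reads of their line, were taken because CXCL10 was not listed. In hTERT RPE-1 they were ATP6V0E2-AS1, CDK11A and PMP22 (0.97 each) for CXCL8, and QPRT, LINC02606 and TMEM50B (0.98 each) for CCL2. Among the ligands themselves CXCL1 went with CXCL2 in MCF10A (0.88). In hTERT RPE-1 IL1B went with CXCL2 (0.96) and with IL1A (0.95). These values share their libraries and group differences and are descriptions.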

How the data were processed

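RNAseq libraries (18, with 3 biological replicates for each of 3 treatments in 2 cell lines) were grouped by the treatment and cell line of their labels. Per the study's methods, the authors trimmed adapters, aligned paired reads to hg38 with HISAT2 2.1.0 in Partek Flow and estimated reads per gene with the Partek E/M algorithm. The deposited gene tables hold a normalized signal whose formula is not given in the sources used here. Its values behave as estimated reads scaled per library by the median of ratios, since the median ratio of every library to its line was 1.0027 in MCF10A and 1.0033 in hTERT RPE-1, and they were read as such. Of low values, 79.8–83.9% and 80.6–85.0% per library were whole multiples of 1 read (tolerance 0.01), so whole reads were not recovered and no count test was run. The deposited comparison tables of the authors (p-values, adjusted p-values, ratios, log2 ratios and group means) were not used. The strand setting of the counting is not given in the sources used here.

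Genes were tested if 3 or more of 9 libraries reached a value of 10 (14726 and 14527) on log2(value + 1), which understates the change of low genes, by limma 3.58.1 (R 4.3.3) with 3 group means per line, a trended prior variance and Benjamini-Hochberg adjustment over all genes, with a threshold of 0.05. The difference between lines was tested on 13339 genes from both fits by the Welch-Satterthwaite approximation across all genes. A test of 1 gene by exact permutation of 3 against 3 samples cannot go below p = 0.1 and was not used. The script was tested on simulated data. Ratios of low genes carry exact 95% intervals for counting error only, and 3 reads were taken as the limit of detection. Depth, the estimated reads summed per library, had a median of 26.6 M (MCF10A) and 34.1 M (hTERT RPE-1). Alternatives were pseudocounts of 0.5 and 5, no filter, library size and upper quartile scaling, only the libraries of the pair compared, the replicate number as a block, no trend, a fold of at least 2, and leaving out each library.

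The labels number the replicates alike across treatments but do not say what a number marks. Same-numbered libraries deviated together (r over 0.1 in every pair) for each mimic against siNT in MCF10A (0.11 to 0.30) and for the mimics against each other in hTERT RPE-1 (0.13 to 0.28). The block is given there, and for the other comparisons only where the processing is described. The cut is coarse: hsa-miR-28-5p replicate 9 and siNT replicate 8 in MCF10A, with different numbers, also reached 0.110. It does not show that the other comparisons are unpaired.

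The ligands and gene lists were chosen with earlier results of these data known. Apart from the 10 ligands and RPS28, named genes were, per list and line, the 3 that rose and the 3 that fell furthest by the mean of both mimics, among genes called under at least 1 mimic with a mean of at least 20 in 1 group, and the 3 genes with the most similar levels to CXCL8 and to a further ligand. Mimic sequences were read from the study's screen table, promoter windows from RefSeq, and gene locations and 3′ untranslated regions from GENCODE 44. Results for some genes are not reported here.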

Additional observations from a re-analysis of the deposited data

Results flagged for a closer look

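The response of CXCL8, CXCL2, IL1A and IL1B differed between the lines by the test of the difference (limma fits of both lines, Benjamini-Hochberg adjustment). IL1B did so with both mimics, which gave 5 calls. Of all genes, 39.8% passed the threshold under hsa-miR-708-5p and 23.4% under hsa-miR-28-5p. Under hsa-miR-708-5p the log2 fold change against siNT of hTERT RPE-1 exceeded that of MCF10A by 3.99 for IL1B (3.88 against -0.11), by 2.71 for CXCL2 (3.62 against 0.91) and by 2.39 for IL1A (3.29 against 0.91). Under hsa-miR-28-5p it was greater by 1.74 for IL1B (1.45 against -0.29), and for CXCL8 the difference was -1.43 (-0.92 against 0.50).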

How the results depend on the processing

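Of 23 calls of ligands, 17 were kept under every alternative run except a fold of at least 2, which IL1A in MCF10A under hsa-miR-708-5p (log2 fold change 0.91) missed, and 6 were lost under at least 1. The lost calls were CXCL1 in MCF10A under hsa-miR-28-5p, CXCL2 and IL1B in hTERT RPE-1 under the same mimic, CXCL8 in hTERT RPE-1 under hsa-miR-708-5p, and the differences between lines of CXCL8 and IL1B under hsa-miR-28-5p. The cause of these losses was not tested. Ligands near the level of 3 reads (CXCL11 and CCL5 in MCF10A, CXCL1 and CXCL2 in hTERT RPE-1) are limited by depth. The 17 kept calls include those of CXCL11 and CCL5 in MCF10A under hsa-miR-708-5p and of CXCL2 in hTERT RPE-1 under that mimic. These could be tested only through the group in which they are high. The 23 calls also share libraries, so they are not independent and nothing is read from their tally.

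With a pseudocount of 5 the difference between lines of CXCL2 under hsa-miR-28-5p became -0.11. Library size scaling turned CXCL8 and IL1B in MCF10A under hsa-miR-708-5p to 0.060 and 0.038, and called 4650 genes between the mimics in hTERT RPE-1 in place of 3084. It moved the median of all genes by 0.12 and 0.14 in MCF10A, and by 0.091 and 0.32, and 0.23 between the mimics, in hTERT RPE-1. The share of calls that were higher then went from 47.1%, 47.3%, 49.7% and 46.5% to 66.1%, 67.6%, 71.8% (hTERT RPE-1 under hsa-miR-708-5p) and 84.8% (between its mimics), from 50.8% to 68.4% between lines under hsa-miR-708-5p, and with upper quartile scaling from 47.1% to 59.2% in MCF10A under hsa-miR-28-5p. Library size scaling also called IL6 in hTERT RPE-1 (0.48, adjusted p = 0.0393) and CXCL2 in MCF10A (1.05, adjusted p = 0.0335, limma) under hsa-miR-708-5p, IL1A between the mimics in MCF10A (adjusted p = 0.0379) and the CXCL8 difference between lines under hsa-miR-708-5p (adjusted p = 0.0413). Upper quartile scaling called that IL1A difference too (adjusted p = 0.0484), and so did the libraries of the pair alone (adjusted p = 0.00984), which also called CXCL2 (adjusted p = 0.0322) and the CXCL8 difference (adjusted p = 0.0243). With only the libraries of the pair, 1 ligand differed between lines under hsa-miR-28-5p in place of 2.

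With the replicate block, 2 and 5 ligands were called in MCF10A in place of 1 and 3, and 643 genes in place of 228 between its mimics. For each mimic against siNT the share of all genes called with the block is not given here, so nothing is read from those ligand counts. The block also called ligands in comparisons where not all same-numbered libraries deviated together, which does not show that these comparisons are unpaired. The ligands were IL1A between the mimics in MCF10A (adjusted p = 0.00444) and CXCL8 in hTERT RPE-1 under hsa-miR-28-5p (adjusted p = 0.0379, limma). The CXCL8 difference between lines under hsa-miR-708-5p was called too (adjusted p = 0.0320, limma). Its MCF10A part is a comparison in which same-numbered libraries did deviate together. Apart from these and CCL2 between the mimics in hTERT RPE-1 (adjusted p = 0.0119), the block changed no other call of a ligand. With no trend of the prior variance, 0 ligands were called in MCF10A under hsa-miR-28-5p, 0 between lines under that mimic, and 150 genes between the mimics in MCF10A. A fold of at least 2 left 854, 1403 and 134 of 3347, 4835 and 228 genes in MCF10A (each mimic against siNT, then the mimics against each other), 1976, 3550 and 700 of 6798, 9024 and 3084 in hTERT RPE-1, and 1136 and 2270 of 3127 and 5311 between lines.

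Leaving out 1 library at a time gave 1949–3071, 3175–5483 and 116–383 genes called in MCF10A and 1509–4083 between the mimics in hTERT RPE-1. It gave 0–2 and 3–5 ligands in MCF10A, 1–4 in hTERT RPE-1 under hsa-miR-28-5p and 0–2 between lines under that mimic. Over all genes the last 2 settings gave 5493–6595 and 2287–3362 calls, so the ligand counts are not read on their own. Uncalled log2 values that changed sign ranged, in MCF10A under hsa-miR-28-5p, from -1.02 to 0.017 (CXCL11), -0.71 to 0.45 (IL6) and -0.0074 to 0.36 (IL1A), under hsa-miR-708-5p from -0.35 to 0.17 (CXCL8) and -0.22 to 0.054 (IL1B), and between the mimics from -0.23 to 0.38 (CXCL2). In hTERT RPE-1 they ranged under hsa-miR-28-5p from -0.11 to 1.35 (CXCL1), -0.22 to 0.72 (IL1A) and -0.11 to 0.32 (IL6), and between the mimics from -0.0034 to 1.45 (CXCL1) and -0.16 to 0.27 (IL6). Between lines they ranged under hsa-miR-28-5p from -1.33 to 0.13 (CXCL1), -0.34 to 0.81 (IL6) and -0.42 to 0.52 (IL1A), and under hsa-miR-708-5p from -0.042 to 1.04 (CXCL1) and -0.89 to 0.027 (IL6).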
